A study of Homo sapiens with 4 samples.

Results

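The 4 ID genes, ID1, ID2, ID3 and ID4, were followed across 4 RNA-seq libraries of LNCaP, a human prostate cancer line that responds to androgens and derives from a metastasis in a lymph node. For 48 h, the cells carried an empty vector (2 libraries) or a vector with the open reading frame of CRYM (2 libraries), introduced by transfection. The product of CRYM is mu-crystallin, which binds thyroid hormone in the cytosol. In both groups 2500 ng of plasmid and 12 µL of lipid reagent were used on passage 22 cells in medium with 10% serum, and the labels call the libraries biological replicates. The transfection was transient, so a culture can hold cells that took up no plasmid. The 4 genes are among 52291 loci joined over the libraries. In each library the row that carries the gene's name was taken. Where no row was named, the row with the highest overlap with the gene's span was taken, as shared bases over the bases of both together, with at least 0.4 required. This gave 15 of 16 possible values, since empty vector 1 held no row for ID1 by that rule. The lowest overlap among the rows taken was 0.687, for ID4, which was named in all 4 libraries, and the highest among the rows passed over was 0.246, for a short row inside ID2.

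ID proteins are helix-loop-helix proteins without the basic stretch that contacts DNA. They pair with E proteins, the common partners of tissue-specific basic helix-loop-helix factors, and the resulting pairs do not bind DNA, so ID proteins hold back differentiation programmes. Bone morphogenetic proteins (BMPs) act through receptors that phosphorylate SMAD1, SMAD5 and SMAD9, and ID1, ID2 and ID3 are among the best-known direct targets of these SMADs. In prostate epithelium ID genes have been studied mainly for proliferation and invasion.

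The helix-loop-helix region is where the members are most alike, and it is shown because short reads could be assigned to the wrong member there. The lines give the 123 coding bases most alike in the family, from GENCODE 29 transcripts, with capitals for bases identical in all 4 members:
ID1: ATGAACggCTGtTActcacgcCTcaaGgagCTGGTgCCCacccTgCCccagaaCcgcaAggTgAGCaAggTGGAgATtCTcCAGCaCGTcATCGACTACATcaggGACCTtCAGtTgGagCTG
ID2: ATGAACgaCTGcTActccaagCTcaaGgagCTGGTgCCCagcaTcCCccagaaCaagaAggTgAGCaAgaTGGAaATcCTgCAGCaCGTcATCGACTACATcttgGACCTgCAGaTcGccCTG
ID3: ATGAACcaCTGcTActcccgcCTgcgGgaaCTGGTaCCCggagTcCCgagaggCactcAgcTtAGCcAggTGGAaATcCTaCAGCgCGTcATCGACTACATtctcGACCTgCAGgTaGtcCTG
ID4: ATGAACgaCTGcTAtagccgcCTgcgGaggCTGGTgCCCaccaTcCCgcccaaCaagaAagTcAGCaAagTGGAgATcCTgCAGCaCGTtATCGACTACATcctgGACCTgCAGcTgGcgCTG
Of the 123 bases, 71 (57.7%) were identical in all 4. Within this stretch identity was lowest between ID1 and ID3, at 67.5%, and highest between ID1 and ID2, at 81.3%. Over whole transcripts, the longest run shared exactly by a pair of members was 21 bases, between ID1 and ID2. Reads were 50 bases long and single-end, longer than any such run. The coding sequences are 465 bases for ID1, 402 for ID2, 357 for ID3 and 483 for ID4.

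ID3 was the member with the highest level in the empty vector libraries and stood lower in both CRYM libraries. It lies at chr1:23884409-23886285 (hg19), on the minus strand, and its row spans the gene. ID3 had 8.15 FPKM (fragments per kilobase, scaled to the mapped reads of the library) in empty vector 1 and 9.43 in empty vector 2. In CRYM vector 1 and 2 it had 2.23 and 3.87 FPKM. The groups did not overlap, and the lowest empty vector value lay above both CRYM values by more than their deposited intervals, 7.32 to 8.99 against 3.31 to 4.42 in CRYM vector 2. The mean fell from 8.79 ± 0.904 (SD, n = 2) to 3.05 ± 1.16 FPKM (SD, n = 2), 2.89-fold. As log2(FPKM + 1), a scale that compresses differences between low values, the difference was -1.30 with a standard error of 0.253. In bulk RNA, fewer cells that express a gene and less of its RNA per cell cannot be told apart.

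ID1, at chr20:30193086-30194318 on the plus strand, was also lower in the CRYM libraries. It had 2.45 FPKM in empty vector 2, 0.728 in CRYM vector 1 and 1.21 in CRYM vector 2. Empty vector 1 had no row of its own for ID1: a single row of 28868 bases, chr20:30165451-30194318, covered it at 2.35 FPKM. That span also holds RNU6-384P, a small nuclear RNA pseudogene listed at 10.3 FPKM in empty vector 1 and at 0 in the other 3 libraries. The fit dropped empty vector 1 for ID1, leaving 1 empty vector library, so the log2 difference of -0.82 with a standard error of 0.231 rests on 3 libraries. With the longer row taken for ID1, the empty vector mean was 2.40 ± 0.0711 FPKM (SD, n = 2) against 0.969 ± 0.342 (SD, n = 2), and the log2 difference was -0.80. Under either choice the empty vector values lay above both CRYM values.

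ID2 had the higher FPKM in the CRYM libraries. Its row lies at chr2:8818975-8824583, on the plus strand, starts 29 bases earlier in empty vector 2, and carries no gene name in any library. ID2 had 4.87 and 4.44 FPKM with the empty vector, and 5.69 and 6.37 FPKM with CRYM. The groups did not overlap, but the deposited intervals of empty vector 1 (4.38 to 5.36) and CRYM vector 1 (5.12 to 6.26) did. The mean was 4.66 ± 0.307 FPKM (SD, n = 2) with the empty vector and 6.03 ± 0.478 (SD, n = 2) with CRYM, a ratio of 1.29. The log2 difference was 0.31 with a standard error of 0.0819. Its sign turned to -0.20 when each library was rescaled to the same total FPKM over all rows, a setting that moved the median of all tested loci to -0.52. Relative to that median, ID2 remained on the higher side.

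CRYM vector 2 differed from the others at ID2 in the rows it held. There, 2 more rows lay inside the gene, chr2:8819537-8820912 at 2.95 FPKM and chr2:8819955-8820676 at 1.69 FPKM. The other 3 libraries had a single row above 0 at ID2. Reads may have been divided between the rows of CRYM vector 2, so the ID2 value there may not hold all of the gene's reads. With CRYM vector 2 left out for this gene, the log2 difference was 0.24.

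ID4 was close to the limit of detection. Its row, chr6:19837617-19840915 on the plus strand, stood at 0.0379 and 0.0328 FPKM with the empty vector and at 0.0432 and 0.0513 FPKM with CRYM. If the deposited intervals are taken to span 2 standard deviations of counting error on each side, they match about 4, 4, 4 and 6 fragments. The intervals overlapped in all 4 libraries, and ID4 was too low to be tested. At this depth no difference in ID4 was detectable.

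**Figure D1:**
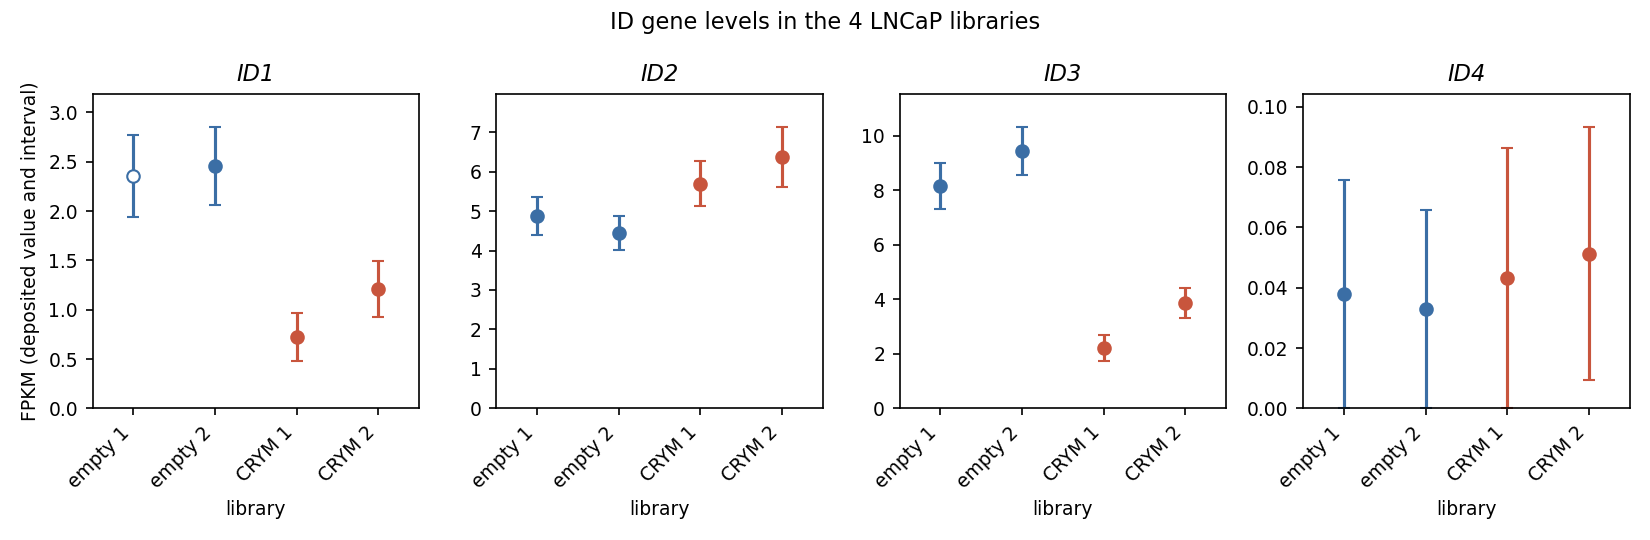
Level of each ID gene (FPKM, y axis, a separate scale per gene) in the 4 libraries; points are deposited values and bars the deposited intervals, blue for empty vector and red for CRYM vector. ID3 falls from 8.15 and 9.43 to 2.23 and 3.87, ID1 is lower with CRYM (open point: the longer row of empty vector 1), ID2 is higher, and ID4 stays below 0.1.

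The precision differed widely between members. From the widths of the intervals, taken as counting error only, ID3 matched about 382 and 461 fragments with the empty vector and 88 and 192 with CRYM. ID1 matched 155 fragments in empty vector 2, 36 in CRYM vector 1 and 73 in CRYM vector 2. These numbers reflect both level and depth: relative to empty vector 1, the depth was 1.15 in empty vector 2, 0.842 in CRYM vector 1 and 1.07 in CRYM vector 2. At equal depth the fragments of ID3 were 2.76-fold fewer with CRYM and those of ID1 2.43-fold fewer, close to the folds in FPKM of 2.89 and 2.53. ID2 depended on the measure: at equal depth its row matched 397 and 355 fragments with the empty vector and 480 and 264 with CRYM, a ratio of 0.989 beside the FPKM ratio of 1.29. Summed with the 2 further rows inside the gene, CRYM vector 2 had 554 fragments in place of 264. Implied fragments are not read counts and can part from FPKM. For KLK3, the gene of prostate-specific antigen, their CRYM to empty vector ratio at equal depth was 1.08 beside an FPKM ratio of 0.462. CRYM vector 1, the library with the lowest depth, was the lower of the CRYM pair for ID1 and ID3. For ID3 the CRYM libraries lay apart by more than their deposited intervals: that of CRYM vector 1 (1.75 to 2.71) ended below that of CRYM vector 2 (3.31 to 4.42). For ID1 the corresponding intervals, 0.485 to 0.970 and 0.928 to 1.49, overlapped.

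The order of the family changed with the vector. With the empty vector the levels per length ran ID3, ID2, ID1, ID4, and with CRYM they ran ID2, ID3, ID1, ID4. Neighbours in each order were separated by more than the deposited intervals, and also by more than the spread between the libraries of the group. The exception is ID1 with the empty vector, which had 1 value and so no spread. The ratio of ID3 to ID2 in FPKM was 1.67 and 2.12 with the empty vector, and 0.392 and 0.607 with CRYM. This ratio is taken within a library, so it is the same under any rescaling of a whole library. By contrast, the ratio of ID3 to ID1 was 3.84 in empty vector 2 and 3.06 and 3.19 in the CRYM libraries. In empty vector 2, ID3 made up 57.7% of the summed FPKM of the 4 genes, ID2 27.1% and ID1 15.0%. In the CRYM libraries ID2 made up 65.5% and 55.4% of the sum, which was 8.69 and 11.5 FPKM against 16.4 FPKM in empty vector 2.

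The family was proposed with this contrast known, so the differences of its members are descriptions and are read as no more than that. The 3 tested members did not overlap between the groups, ID1 and ID3 lower (35.3% of all tested loci were lower without overlap) and ID2 higher (37.0% of all tested loci). For ID1 this set 1 empty vector value against 2 CRYM values, so shares over loci with 4 libraries, here and below, are no like background for it. Groups did not overlap, in either direction, at 72.2% of all tested loci. In a limma fit on log2(FPKM + 1) over the 10093 loci with at least 1 FPKM in at least 2 libraries, 1 of the 3 tested members, ID3, passed an adjusted p of 0.05. Of all tested loci, 33.3% passed, 15.7% higher and 17.7% lower with CRYM, and nothing is read from the members' count beside that share. The call for ID3 was lost when any single library was left out, with log2 differences from -1.60 to -1.01. A fall as large as that of ID3 or larger was seen at 2.13% of tested loci, and as large as that of ID1 at 4.22%. A rise as large as that of ID2 was seen at 19.9% of them.

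**Figure D2:**
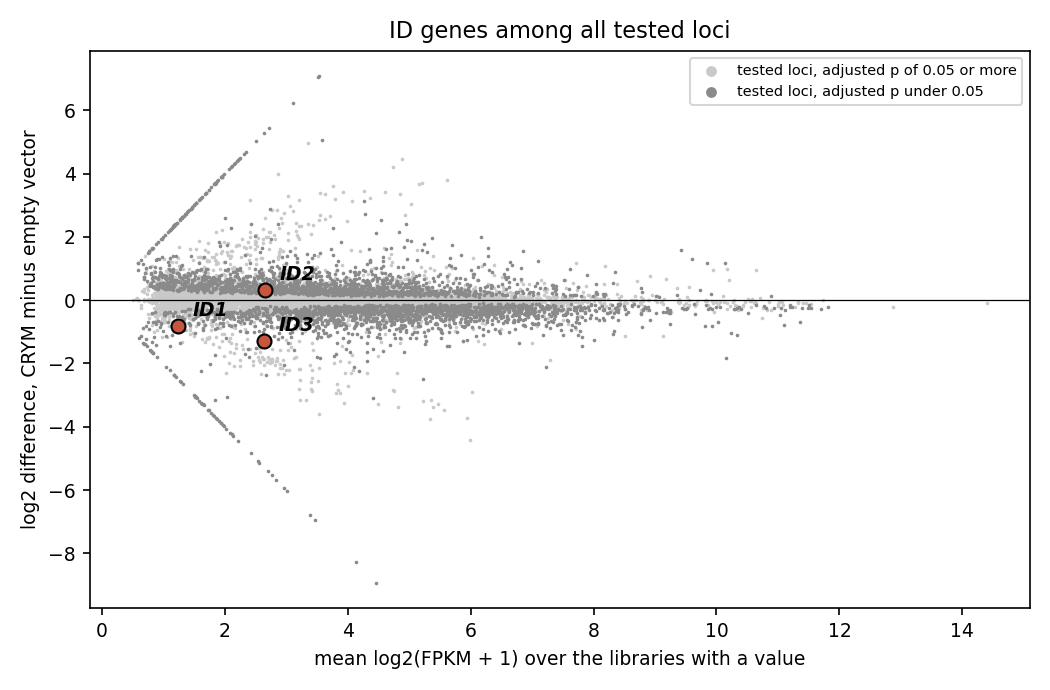
Each point is a tested locus, with the mean log2(FPKM + 1) on the x axis and the log2 difference, CRYM minus empty vector, on the y axis; darker points passed an adjusted p of 0.05 in the limma fit. ID3 (-1.30) and ID1 (-0.82) lie below most of the 10093 loci, and ID2 (0.31) lies among them on the upper side; the straight outer arms are loci listed at 0 in a whole group.

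CRYM itself checks the labels. Its locus, chr16:21250195-21314404, had 1.17 and 0.977 FPKM with the empty vector, and 65.3 and 72.5 with its own vector (log2 difference 5.07, limma adjusted p = 0.00253). Luminal prostate markers were high, with KRT8 and KRT18, luminal keratins, at 155 FPKM or more in each library, and KLK3, which encodes prostate-specific antigen, at 1939 and 1874 FPKM with the empty vector and 863 and 900.4 with CRYM. The summed level of the 8 luminal markers found, of 10 listed, was 3294 to 3391 FPKM with the empty vector and 1882 to 1929 with CRYM. The sum was carried by KLK3, KLK2 and TMPRSS2: FOLH1, which encodes prostate-specific membrane antigen, went the other way, from 216 and 220.3 to 319.7 and 308 FPKM (limma adjusted p = 0.00796). Fragments implied by the deposited intervals, at equal depth, did not show the same fall, with CRYM to empty vector ratios of 1.08 for KLK3, 0.764 for KLK2 and 0.942 for TMPRSS2. Summed markers of other cell types were lower. They reached 0.302 to 0.409 FPKM for basal cells (2 of 4 found), 1.63 to 2.46 for immune cells, 1.95 to 2.73 for endothelium (3 of 4 found) and 26.7 to 30.3 for neuroendocrine cells (4 of 4 found, nearly all of it ENO2). TP63, PTPRC, CD3E, CDH5, CHGA and INSM1 stayed below 0.1 FPKM in each library, while HLA-DRA, VWF and ENO2 were not near 0. The fibroblast and smooth muscle list (6 of 7 found) summed to 12.7 and 14.4 FPKM with the empty vector and to 9.34 and 9.70 with CRYM. In that list ACTA2, smooth muscle actin, fell from 7.45 and 8.71 to 1.90 and 1.73 FPKM (log2 difference -1.69, limma adjusted p = 0.00782). A longer row that overlaps ACTA2 had 2.08 and 1.65 FPKM with the empty vector and 1.65 and 1.54 with CRYM. COL1A1, a fibroblast collagen, had 3.55 and 3.72 FPKM with the empty vector and 4.69 and 5.78 with CRYM. The part of these markers in the ID differences was not tested.

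The promoters of the 3 members with a measurable level are shown because ID1 and ID3 were lower together while ID2 was not. Each line is the 250 bases upstream of the start of the gene from RefSeq (GRCh38.p14), 5′ to 3′ on the strand of the gene, with matches to 5 searched motifs in capitals:
ID1: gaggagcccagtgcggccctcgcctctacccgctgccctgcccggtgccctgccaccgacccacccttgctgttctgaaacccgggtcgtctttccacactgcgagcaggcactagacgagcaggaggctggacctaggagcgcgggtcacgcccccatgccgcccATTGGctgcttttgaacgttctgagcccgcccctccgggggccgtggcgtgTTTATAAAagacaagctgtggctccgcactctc
ID2: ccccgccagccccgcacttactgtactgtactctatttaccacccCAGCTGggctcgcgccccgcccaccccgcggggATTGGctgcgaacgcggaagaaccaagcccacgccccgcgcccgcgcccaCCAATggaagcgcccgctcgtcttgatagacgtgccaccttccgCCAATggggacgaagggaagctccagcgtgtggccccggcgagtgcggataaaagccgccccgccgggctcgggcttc
ID3: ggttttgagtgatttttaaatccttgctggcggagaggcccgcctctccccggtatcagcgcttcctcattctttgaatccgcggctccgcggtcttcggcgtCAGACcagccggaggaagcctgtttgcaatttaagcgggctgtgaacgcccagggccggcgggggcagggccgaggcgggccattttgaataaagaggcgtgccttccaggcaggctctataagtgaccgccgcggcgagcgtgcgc
They lie at chr20:31605039-31605288 (plus strand), chr2:8681806-8682055 (plus strand) and chr1:23559502-23559751 (minus strand). Each motif was searched on both strands. The GC-rich SMAD element GGCGCC had no match in any of the 4 ID windows, and 16.4% of 35116 promoter windows of this length hold it. The SMAD box CAGAC matched ID3 at 147 bases before the start, and 38.0% of windows hold it. The E-box CANNTG, which E proteins read, matched ID2 at 205 bases, as in 61.8% of windows. The TATA box TATAAA matched ID1 at 33 and 31 bases, overlapping on opposite strands, and 10.7% of windows hold it. The CCAAT box, 5 letters as its name spells them, matched ID1 at 84 bases and ID2 at 172, 122 and 78 bases but not ID3, and 32.0% of windows hold it. In the window of ID4, which is not printed, each of these motifs except the GC-rich element matched once. These matches describe letters and not bound sites, and the well-known BMP-responsive elements of ID1 lie further upstream than this window.

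Genes that carry or oppose the BMP signal were read from the same fit. Of 78 genes in 8 lists, 60 were found in the tables, 25 were high enough to be tested, and 11 passed an adjusted p of 0.05, 4 higher and 7 lower with CRYM. That is 44.0% of those tested, beside 33.3% of all tested loci, and their median log2 difference was -0.12 beside 0.01 for all tested loci. The counts per list given below rest on few tested genes each, and nothing is read from them beside that 33.3%. The lists were chosen with earlier results of these data known. No limma call among these genes remained when any single library was left out, with 9 to 12 of the 25 at an unadjusted p under 0.05. Rescaling each library to the same total FPKM, with its shift of the median to -0.52, turned ACVR2B to -0.03 and TCF12 to -0.27. It ended the call for BAMBI and turned BMPR2 to -0.28, a call in the lower direction (limma adjusted p = 0.0433). Apart from the replicate block and leaving out a library, the ACVR2B call held in 6 of 12 alternatives and that of JUNB in 7 of 13. The call for RUNX2 held in 8 of 12 and that for BMPR2 in 9 of 13. MYOD1 and BHLHE40 stayed lower and past the threshold under each scaling, pseudocount, filter and join in which they were tested.

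Ligands had low values. Of 11 BMP ligand genes, only BMP8B was tested, at 2.18 ± 0.0130 FPKM with the empty vector and 2.47 ± 0.0798 with CRYM (SD, n = 2 each; limma adjusted p = 0.194). The other 10 averaged at most 0.204 FPKM, 4 of them listed at 0 throughout, the highest of them BMP7, at 0.216 and 0.192 FPKM in the group means. A listed 0 may be a failed estimate, since ACVR2A and SMURF2, which many cell types express, were also listed at 0 in all 4 libraries. Of 5 tested receptors, 2 rose. BMPR2, the main type II receptor for BMPs, rose from 11.4 and 12.1 to 14.8 and 14.1 FPKM (log2 difference 0.28, limma adjusted p = 0.0404). ACVR2B, a type II receptor shared with activins, rose from 1.13 and 1.17 to 1.75 and 1.63 FPKM (log2 difference 0.32, limma adjusted p = 0.0463). The type I receptors BMPR1A and BMPR1B did not pass, with limma adjusted p of 0.195 and 0.0663.

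Among the SMADs that carry the signal, SMAD5 and SMAD9 were found and tested. SMAD9 fell from 5.05 and 5.42 to 3.06 and 3.32 FPKM (log2 difference -0.58, limma adjusted p = 0.0186). SMAD5 had group means of 16.4 and 16.1 FPKM (limma adjusted p = 0.713). SMAD1 and SMAD4 were not analysed here.

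Of 4 tested BMP inhibitors, BAMBI, a decoy receptor that lacks a kinase domain, rose from 11.1 and 11.4 to 18.0 and 18.2 FPKM (log2 difference 0.65, limma adjusted p = 0.00694). Both CRYM libraries stood above both empty vector libraries for BAMBI, as at 37.0% of all tested loci. A link between BAMBI and ID3 was not tested. FSTL1, TWSG1 and SMURF1 did not pass. Of the 4 tested other BMP targets, 2 fell. JUNB, an AP-1 subunit, fell from 23.7 and 21.7 to 16.0 and 17.8 FPKM (log2 difference -0.40, limma adjusted p = 0.0463). JUNB lies inside a longer row that stood at 33.2 and 29.5 FPKM with the empty vector and 44.4 and 37.5 with CRYM. RUNX2, a bone transcription factor, fell from 1.35 and 1.48 to 0.858 and 0.769 FPKM (log2 difference -0.42, limma adjusted p = 0.0383). A longer row that overlaps its start had 3.13 and 3.19 FPKM against 4.66 and 4.51, so for JUNB and RUNX2 alike reads may have been divided between rows. The homeobox genes MSX1 and MSX2, which are BMP targets in limb and tooth, did not pass, with limma adjusted p of 0.0940 and 0.972.

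Of the E proteins, the partners of ID proteins, TCF3 and TCF12 were measured and had higher FPKM than any ID gene in each of the 4 libraries, and TCF4 was not analysed here. TCF12, an E protein, rose from 11.2 ± 0.435 to 13.9 ± 0.0954 FPKM (SD, n = 2 each; log2 difference 0.29, limma adjusted p = 0.0267). TCF3, which encodes the E proteins E12 and E47, had 18.6 and 22.9 FPKM with the empty vector and 17.2 and 18.3 with CRYM and did not pass (limma adjusted p = 0.280). Of 3 tested tissue-specific and repressor bHLH factors, 2 fell. BHLHE40, a clock-linked repressor of the bHLH family, fell from 41.1 and 44.1 to 17.7 and 18.5 FPKM (log2 difference -1.19, limma adjusted p = 0.00615). Corrected for depth, the fragments implied by its deposited intervals were 0.877 times as many with CRYM as with the empty vector, while the FPKM ratio was 0.426. MYOD1, the muscle-determining factor, fell from 2.22 ± 0.168 to 0.516 ± 0.142 FPKM (SD, n = 2 each; lower in both CRYM libraries than in either empty vector library), a log2 difference of -1.09 with a limma adjusted p of 0.0154. TWIST1 did not pass.

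Of the 4 tested genes that ID or E proteins are known to regulate, 2 passed, both lower. CDKN1A, which encodes the cell cycle inhibitor p21 and is activated by E proteins, fell from 82.3 and 88.4 to 62.3 and 62.3 FPKM (log2 difference -0.45, limma adjusted p = 0.0161). Its implied fragments at equal depth did not fall, with a ratio of 1.06 beside the FPKM ratio of 0.73. Of the 10 passing list genes with a fold, implied fragments moved in the direction of the FPKM in the other 9. The sizes were close for MYOD1 (0.229 beside an FPKM ratio of 0.233) but far apart for RUNX2 (0.113 beside 0.573). Both measures come from the same deposited estimates, so the second is no independent check. CDKN2A, which encodes p16, was listed at 17.4 and 18.2 FPKM with the empty vector and at 0 in both CRYM libraries. A longer row over it had 15.6 and 16.4 FPKM against 24.0 and 19.1, so reads may have been divided between the rows. Without CDKN2A, 6 of 24 tested list genes were lower past the threshold, beside 17.7% of all tested loci. The 6 include JUNB and RUNX2, whose reads may also have been divided between rows. A negative log2 difference was seen in 16 of 24, while the median of all tested loci was 0.01. Nothing is read from these counts. CDKN1B, which encodes p27, and THBS1 did not pass.

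**Figure D3:**
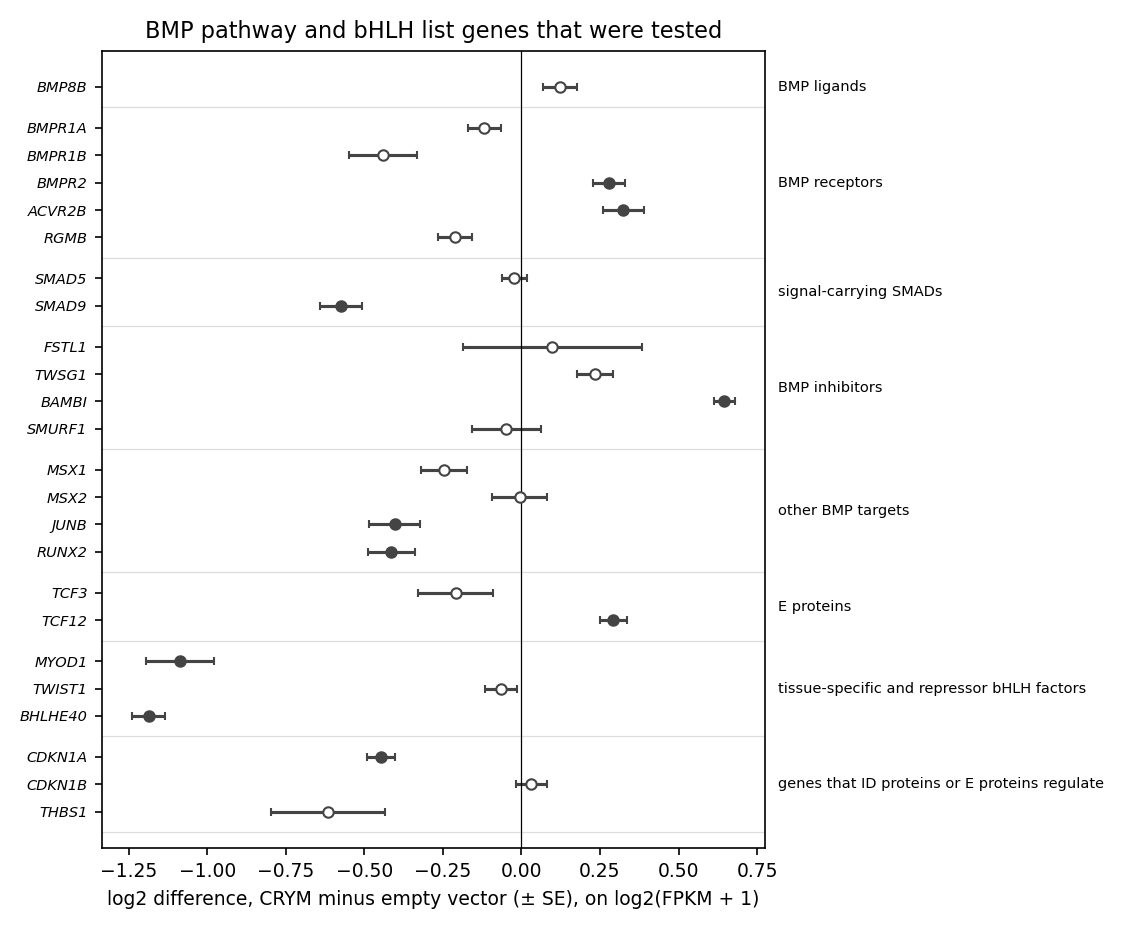
Log2 difference, CRYM minus empty vector, with its standard error for the 24 tested list genes other than CDKN2A, grouped by role; filled points passed an adjusted p of 0.05 in the limma fit. BAMBI (0.65) lies farthest to the right and BHLHE40 (-1.19) farthest to the left, while SMAD9 and SMAD5 differ within their group.

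The genes whose pattern was closest to each member were taken from 773 named protein-coding loci, by the root mean square difference of log2(FPKM + 1) after subtracting each gene's mean. For ID3 the closest were RASD1, FGF21 and FAM43A, at 0.169, 0.184 and 0.187 over 4 libraries, beside a median of 0.679 over the candidates. RASD1, a Ras-related protein induced by glucocorticoids, had 7.95 and 8.22 FPKM with the empty vector and 2.58 and 2.93 with CRYM. On log2(FPKM + 1), all 3 had a smaller step between the CRYM libraries than ID3. FGF21, at 0.144 and 0.260 FPKM with CRYM, lies where that scale compresses differences, and as a ratio its step was not smaller. For ID1, over 3 libraries, the closest were PHLDA2, NRGN and SGMS2, at 0.0577, 0.0680 and 0.0768. PHLDA2, an imprinted gene, had 52.6 FPKM in empty vector 2 and 25.1 and 30.2 with CRYM. For ID2 the closest were AL592284.1, ACADS and CCDC28B, at 0.0229, 0.0234 and 0.0355, beside a median of 0.204. ACADS, a mitochondrial dehydrogenase of short-chain fatty acids, had 18.7 and 17.0 FPKM against 21.3 and 22.7. With 3 or 4 points a pattern, these are descriptions of likeness in these libraries.

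**Figure D4:**
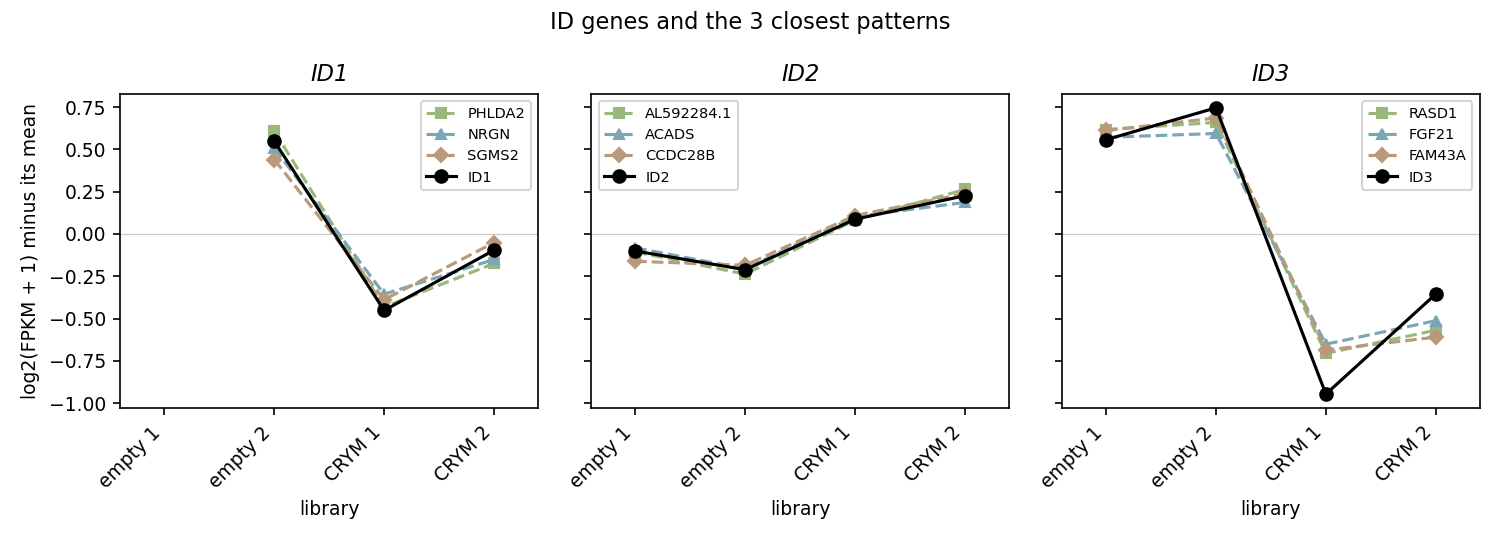
Log2(FPKM + 1) minus its mean (y axis) in each library (x axis) for ID1, ID2 and ID3 in black and the 3 closest named protein-coding loci in colour. ID3 drops further in CRYM vector 1 than RASD1, FGF21 and FAM43A do, and ID1 has no point in empty vector 1.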

How the data were processed

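RNA-seq of LNCaP cells (2 empty vector and 2 CRYM vector libraries) was deposited as 1 gene table per library, with FPKM made by the authors with Cufflinks 2.2.1 after TopHat2 2.1.1 and Bowtie2 2.2.9 on hg19, per the submitters' processing notes. Rows at identical position in the 4 tables were joined. Loci with at least 1 FPKM in at least 2 libraries were compared on log2(FPKM + 1) with limma 3.58.1 in R 4.3.3 (trended variance, two-sided, Benjamini-Hochberg over all 10093 loci). The fit was also run on simulated data with independent normal errors, which checks the code and not the calls made here. Whole read counts are not in the tables. Relative depth came from whole steps between values at short loci. Fragments were inferred from the deposited intervals, on the assumption that these hold counting error only.

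The members and lists were chosen with earlier results of these data known. List genes were found by name or, for 37 of 60, as the unnamed row between the same neighbours with fitting width. That order came from GENCODE 29, which carries the tables' identifiers, in place of RefSeq as planned. Of 3882 named rows tried with their own name hidden, 3027 were given a name this way, and 99.0% of those were right. Each of these genes had a row of its own, so the share does not give the error where rows are merged or split. Up to 4 passing genes per list were named, or else the 2 with the highest level; the other tested list genes named here were added after their values were seen. The closing section gives the alternatives. Positions are counted from 1.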

Additional observations from a re-analysis of the deposited data

Results flagged for a closer look

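At ID2, the table of CRYM vector 2 lists rows that the comparison did not use and that none of the other libraries holds. The row chr2:8819537-8820912 stood at 2.95 FPKM and the row chr2:8819955-8820676 at 1.69 FPKM, both inside the ID2 row, which stood at 6.37 FPKM in the same library. They stand out as signal outside the main measurement that has no counterpart in the empty vector libraries or in CRYM vector 1. The intervals of the 3 rows match about 283, 242 and 69 fragments, and the single ID2 row matched 397 and 409 fragments in the empty vector libraries and 404 in CRYM vector 1. How the reads were divided between the rows was not tested.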

How the results depend on the processing

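The log2 difference of ID3 stayed negative under all 16 alternatives, but its limma call did not hold under 8 of them. These were no filter on low FPKM (-1.30), joining all loci by mutual overlap (-1.30) and the replicate block (-1.30). Also among them were rescaling to the same total of joined loci, chosen after seeing the data (-1.27), and leaving out any single library (-1.60 to -1.01). ID1 passed when rescaled to the same total FPKM (-1.22) or with the longer row for empty vector 1, chosen after seeing the data (-0.80). The family was proposed with this contrast known, so calls for its members describe the fit and are no test of them. ID1 gave no value without empty vector 2, and under the block or without a CRYM library it had no test. ID2 turned to -0.20 when rescaled to the same total. The pseudocount moved sizes too: 5 gave -0.78 for ID3, -0.32 for ID1 and 0.19 for ID2, and 0.1 gave -1.55, -1.29 and 0.36, with no call changed. The ID4 difference of 0.02 moved to 0.12 with a pseudocount of 0.1, to 0.0034 with a pseudocount of 5 and to -0.0073 with that rescaling. Leaving out each library gave -0.9999 to -0.64 for ID1, 0.24 to 0.38 for ID2 and 0.011 to 0.022 for ID4.

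Over all loci, 1581 were higher and 1783 lower. These became 788 and 1082 with no filter, 297 and 6258 when rescaled to the same total (median shift -0.52), and 678 and 623 with the total of joined loci. With the replicate block, or without any single library, limma called 0 higher and 0 lower, with 3819 loci at an unadjusted p under 0.05 under the block and 3628 to 3815 without a library; no other tool was run. The 11 list genes became 6 with no filter, 21 with the same total, 7 with mutual overlap, 4 with the total of joined loci, and 0 under the block or without any single library (13 under the block and 9 to 12 without a library at an unadjusted p under 0.05). All 21 list genes called under the same total were lower with CRYM. The labels do not say that replicate numbers pair libraries across the groups. Deviations of same-numbered libraries correlated at 0.0361, and a shared source was not tested. With 2 libraries a group, dropping 1 leaves 1 residual degree of freedom, so the spread of the remaining pair stands in for the library left alone. ID1 and ID4 are limited most by depth, at an implied 36 to 155 and 4 to 6 fragments. The cause of the other changes was not tested.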
